A study of Mus musculus with 19 samples.

Results

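The Krüppel-like factors (Klfs) are transcription factors that bind GC-rich and CACCC sequences through zinc fingers at their carboxyl end, and they differ in the domain that recruits activators or repressors. Those followed here were Klf2, Klf3, Klf4, Klf6, Klf9, Klf10, Klf11, Klf12, Klf13 and Klf15. They were taken as every non-control probe whose RefSeq accession belongs to one of them, which gave 10 probes for 10 genes among 55681 non-control probes. They were selected on the log2 ratios of liver over reference in each animal at the 4 doses, which were already known, so those values are given as a description and support nothing by themselves.

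The animals were males, 10 weeks of age, of a transgenic mouse strain named 40.6. A polycyclic aromatic hydrocarbon, dibenz[a,h]anthracene, was given, and liver was taken 3 days later. Doses were 0 (control, 5 animals), 6.25 (5), 12.5 (4) and 25 mg/kg (5). Per the labels the controls differed only in the dose, so all groups share the transgenic background, and each sample was a part of the organ. Each of the 19 arrays held the liver RNA of 1 animal in red against a common green-labelled reference, RNA of 11 mouse cell lines, with no dye swap. A value below is therefore the log2 ratio of liver over reference on 1 array, and a log2 change is the difference of such ratios between a dose and control, with its standard error (SE) from a limma fit over all 19 arrays. To pass, a probe needed an adjusted p below 0.05 (Benjamini-Hochberg over the 29415 probes measured in liver, two-sided).

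Klf proteins fall into groups by partner. Klf9, Klf10, Klf11 and Klf13 hold a short motif that binds the Sin3A corepressor, Klf3 and Klf12 bind the corepressor CtBP, and Klf2, Klf4 and Klf6 are mostly activators. In liver, Klf15 governs amino acid breakdown and gluconeogenesis, Klf9 responds to glucocorticoids and thyroid hormone, Klf10 answers TGF-beta and sugar, and Klf10, Klf9 and Klf15 have daily rhythms. Klf2 and Klf4 are best known from endothelium and other non-parenchymal cells, and Klf6 from stellate cells and the injury response.

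The 250 bases upstream of the RefSeq start (GRCm38.p6) were read for 9 of the 10 genes, all but Klf10, and 3 are printed. Klf13 is shown as the member that passed at 25 mg/kg, Klf9 as a member of its Sin3A-binding group, and Klf15 as the member with the highest computed ratio of liver over reference. They lie at chr7:63938916-63939165, minus strand for Klf13, chr19:23140976-23141225, plus strand for Klf9 and chr6:90462326-90462575, plus strand for Klf15, written 5′ to 3′ on the strand of the gene. Capitals mark 4 motifs, searched on both strands: the E-box CACGTG, the core of the dioxin response element GCGTG, the GC box GGGCGG and the CACCC box CCACCC.
Klf13: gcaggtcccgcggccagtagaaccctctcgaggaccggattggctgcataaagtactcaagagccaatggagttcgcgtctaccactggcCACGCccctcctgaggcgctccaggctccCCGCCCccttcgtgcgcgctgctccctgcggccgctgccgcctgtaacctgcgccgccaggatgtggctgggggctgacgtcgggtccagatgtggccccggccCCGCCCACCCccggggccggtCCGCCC
Klf9: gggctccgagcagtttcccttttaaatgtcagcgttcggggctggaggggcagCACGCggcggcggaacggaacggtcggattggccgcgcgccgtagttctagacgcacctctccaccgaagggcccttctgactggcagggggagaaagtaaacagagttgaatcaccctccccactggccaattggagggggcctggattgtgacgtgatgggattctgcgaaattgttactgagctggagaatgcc
Klf15: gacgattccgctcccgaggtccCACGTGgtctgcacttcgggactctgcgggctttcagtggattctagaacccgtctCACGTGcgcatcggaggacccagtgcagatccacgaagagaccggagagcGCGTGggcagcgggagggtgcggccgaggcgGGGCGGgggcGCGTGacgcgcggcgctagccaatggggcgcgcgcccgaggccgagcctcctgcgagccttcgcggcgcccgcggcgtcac
Klf13 held 3 GC boxes, at -131, -27 and -6 from the start, a CACCC box that overlaps the second of them, and 1 dioxin response core at -160. Klf9 held only a dioxin response core, at -197. Klf15 held 2 E-boxes, at -228 and -172, besides a GC box and 2 dioxin response cores.

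Among the 9 promoters the E-box occurred in 4 (Klf4, Klf6, Klf11 and Klf15), against 6.02% of 32851 mouse promoters of the same length. The dioxin response core occurred in 6 of 9, against 28.2%, the GC box in 7 of 9, against 32.7%, and the CACCC box in 3 of 9, against 28.1%. The D-box TTATGTAA (0.819% of all), the RORE core AGGTCA (14.0%) and the cyclic AMP element TGACGTCA (1.55%) were in none of the 9. The Klf promoters were rich in G and C, at 59.6 to 78.4% apart from 48.0% for Klf12, where the median promoter had 52.4%, and that base composition bears on every GC-rich motif counted. These matches describe the letters in the window and show no binding.

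All 10 probes passed the filter on low liver signal. Klf2, Klf3, Klf6, Klf9, Klf10, Klf12, Klf13 and Klf15 were well above background in liver on 19 of 19 arrays. Klf4 was above it on 15, including 1 of 4 at 12.5 mg/kg, and Klf11 on 5, with 1 of 5 controls and 2 of 5 animals at 25 mg/kg, so most Klf11 values are bounds on a low signal. In the reference, Klf15 was above background on 6 arrays and Klf12 on 16, and no member was saturated. Hepatocyte markers were bright on every array, with albumin at a log2 ratio of 7.18 in controls. The 19 arrays sat on 3 slides, each with all 4 groups, and slide 1 was scanned 7 days later. Fits with slide as a block and differences within a slide are therefore given beside the results. Per array, 34.4 to 55.7% of probes had liver signal well above background. The 4 arrays at 12.5 mg/kg had 45.8, 37.1, 34.4 and 37.1%, and the controls 35.3 to 55.7%. On slide 1 the array at 12.5 mg/kg had 37.1%, where the others had 51.3 to 55.7%. The part of this in the Klf values at 12.5 mg/kg was not tested.

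In control liver the members spread over a wide range of ratios to the cell line RNA. Klf15 stood highest, at 4.43 ± 0.27 (SD, n = 5), but its reference spot was well above background on only 2 of 5 control arrays, at 15 to 25.5 intensity units over local background. The offset of 50 added in background correction exceeds that signal, so the size of the Klf15 ratio depends on the offset and no fold is given. Klf12 had 2.97 ± 0.61, with a reference spot 15 to 92 units over local background, well above it on 4 of 5 control arrays. The size of the Klf12 ratio therefore also depends on the offset. Klf9 had 1.35 ± 0.37. Klf3 was near the reference, at 0.24 ± 0.28 (adjusted p = 0.085, with slide as a block 0.0229).

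Of the other 6 members, 5 were lower in liver than in the cell lines in every control. Klf11 had a computed ratio of -0.34 ± 0.37, with liver signal well above background on only 1 of 5 control arrays and 1 control above 0, so it is no measured difference. Klf2 had -0.49 ± 0.25 and Klf13 had -0.60 ± 0.17. Klf10 had -2.06 ± 0.42 and Klf6 had -2.27 ± 0.34. Klf4, one of the factors used to reprogram cells to pluripotency, had the lowest computed ratio, at -3.27 ± 0.41. Its liver signal in controls was only 32 to 91 intensity units over local background, well above it on 4 of 5 arrays. Its reference signal was 1654 to 5794 units over local background. The offset added in background correction lies within that range of liver signal. The size of the Klf4 ratio therefore depends on the offset, and no fold is given. Setting Klf11 aside, 3 members were higher and 5 lower at an adjusted p under 0.05, where 42% of all probes were higher and 35.3% lower. In this order the control values of Klf15, Klf12, Klf9 and Klf3 were separate from one another, as were Klf13 from Klf10 and Klf6 from Klf4. Those of Klf3, Klf11, Klf2 and Klf13 overlapped with their neighbours, and so did Klf10 with Klf6. Since the dyes were not swapped, a dye bias of a probe is part of these ratios and cannot be told apart from the difference between liver and reference.

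**Figure D1:**
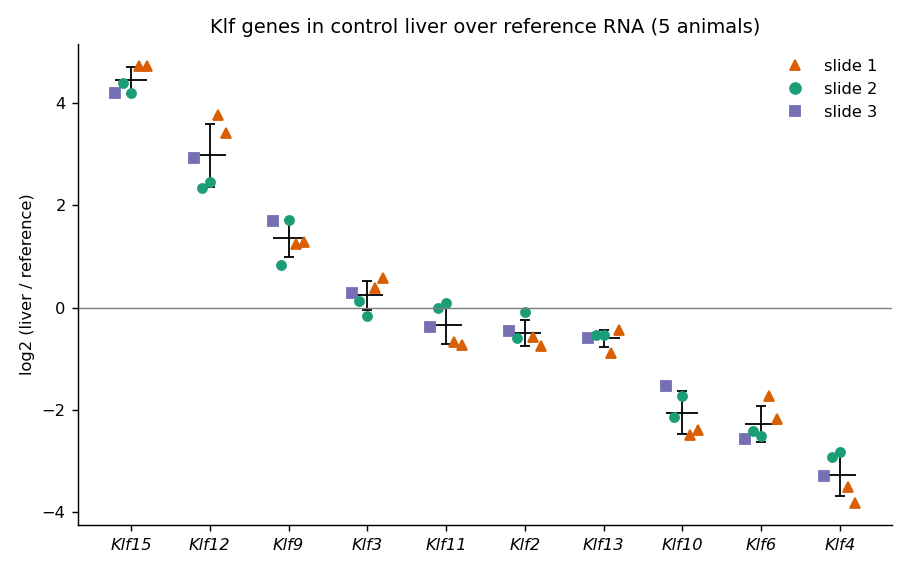
Log2 ratio of liver over reference RNA for each Klf gene in the 5 control animals, ordered by mean, with points shaped by slide, bars at the mean and whiskers of 1 SD. Klf15, Klf12 and Klf9 lie above 0 in every animal, and Klf2, Klf13, Klf10, Klf6 and Klf4 lie below it in every animal.

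At 25 mg/kg Klf13 rose 1.92-fold, Klf10 stood 2.01-fold above control without passing, and the other 8 members were within 1.31-fold of control. Counting directions, 8 members lay above control and 2 below (median change 0.15), where 44.9% of all probes lay above it and their median was -0.02. In the fit with the slide block 9 lay above it (median 0.13), where 46.8% of all probes did. One member passed, where 0.0578% of all probes passed (17 of 29415), and with slide as a block again 1, where 0.816% passed (240 probes). Neither count is a test of the members, which were chosen with this comparison known. In whole liver, a higher share of a cell type and more RNA per cell cannot be told apart.

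Klf13, a Sin3A-binding repressor and activator first studied in lymphocytes and heart, had ratios of -0.60, -0.54, -0.54, -0.88 and -0.45 in the 5 controls. At 6.25 mg/kg they were -0.17, -0.18, 0.45, -0.28 and 0.00, and at 12.5 mg/kg 0.32, -0.15, 0.06 and 0.13. The highest dose gave 0.65, 0.57, 0.61, -0.05 and -0.06. Every one of the 14 treated animals lay above every control, while the treated groups overlapped each other. Of the 5 animals at 25 mg/kg, 3 stood from 0.57 to 0.65 and the other 2 just below 0, inside the range of the lower doses.

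The log2 change of Klf13 was 0.56 ± 0.16 at 6.25 mg/kg (adjusted p = 0.818), 0.69 ± 0.17 at 12.5 mg/kg (adjusted p = 0.732) and 0.94 ± 0.16 at 25 mg/kg (adjusted p = 0.0418). With slide as a block these were 0.53, 0.67 and 0.91, with adjusted p = 0.241, 0.231 and 0.0194. Within slides 1, 2 and 3 the change at 25 mg/kg was 0.61, 0.81 and 1.21, and it was above 0 on each slide at every dose. Per mg/kg the fitted slope was 0.0342 ± 0.0068 (adjusted p = 0.099), which passed with slide as a block (0.0328, adjusted p = 0.0474) and with dose as a rank (adjusted p = 0.0404). For the trend 0.0204% of all probes passed, and 0.241% with the block.

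The size of the Klf13 change moved little with the processing, while its adjusted p lay close to the threshold. Over 11 other settings the change at 25 mg/kg ran from 0.91 to 1.04 and the adjusted p from 0.00787 to 0.0642, with 6 settings passing. It did not pass with the scanner software's processed signals (0.0507), the deposited table (0.0526), no filter on low signal (0.0642), only the arrays of the 2 groups (0.0634) or without slide 1 (0.0641). Leaving out each of the 19 arrays in turn gave 0.87 to 1.04, and the adjusted p stayed under 0.05 in 7 of them. The call was lost without any 1 of the 5 controls, without replicates 1, 2 or 3 at 25 mg/kg (up to adjusted p = 0.183, without replicate 1), without replicates 2 or 4 at 6.25 mg/kg and without replicates 3 or 4 at 12.5 mg/kg.

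Klf10, the TGF-beta-inducible early gene and a regulator of hepatic glucose and lipid genes, had control ratios of -1.53, -2.14, -1.72, -2.49 and -2.39. At 6.25 mg/kg they were -1.28, -1.83, -0.98, -1.54 and -1.15, and at 12.5 mg/kg -0.39, -0.71, -1.88 and -1.89. The highest dose gave -0.53, -0.81, -0.90, -1.72 and -1.28. Each treated group overlapped the controls: at 12.5 mg/kg a pair of animals stood well above them and the other pair among them. Of the animals at 25 mg/kg, 4 of 5 lay above every control.

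The log2 change of Klf10 was 0.70 ± 0.29, 0.84 ± 0.31 and 1.01 ± 0.29 at 6.25, 12.5 and 25 mg/kg (adjusted p = 0.878, 0.999 and 0.271). With slide as a block it was 0.58, 0.78 and 0.88, and the adjusted p at 25 mg/kg was 0.118. Within slides 1, 2 and 3 the change at 25 mg/kg was 1.16, 0.62 and 0.86. Klf10 therefore had a change as large as that of Klf13 with a wider spread among animals. Its standard deviation after dose and slide were removed was 0.47, above that of 97% of 13544 genes. That of Klf13 was 0.28, itself above that of 86.7% of them.

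Klf9, which represses proliferation and is induced by glucocorticoids, had control ratios of 1.69, 0.83, 1.72, 1.24 and 1.27. At 12.5 mg/kg they were 2.10, 2.07, 1.79 and 1.92, all above every control. The highest dose gave 2.21, 2.43, 1.54, 0.76 and 1.73, so that this group held both the highest Klf9 value of the study and the lowest. The animals at 6.25 mg/kg, from 1.16 to 1.81 with a median of 1.43, overlapped the controls. The change was 0.07 ± 0.24, 0.62 ± 0.26 and 0.39 ± 0.24 with rising dose (adjusted p = 0.981, 0.999 and 0.801). With 1 array left out the change at 25 mg/kg ran from 0.21 (without replicate 2 of that dose) to 0.63 (without replicate 4). At the highest dose slides 1, 2 and 3 taken singly gave 0.48, -0.13 and 0.63.

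Klf11, the remaining Sin3A-binding member and a regulator of glucose metabolism, had changes of -0.00, 0.05 and 0.12 at the 3 doses, on a signal mostly not above background. The animal with the lowest Klf9 at 25 mg/kg (replicate 4, on slide 2) also had the lowest Klf10, Klf12 and Klf15 of its group. Its Klf13 of -0.05 was next to the lowest, -0.06, and its Klf2 and Klf11 were also next to the lowest. In contrast, its Klf4 of -2.72 was the highest of the group, and its Klf3 and Klf6 were the middle values. Slide accounted for 67.9% of the variance of Klf12 and 31.5% of that of Klf15, and its part in these values was not tested.

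**Figure D2:**
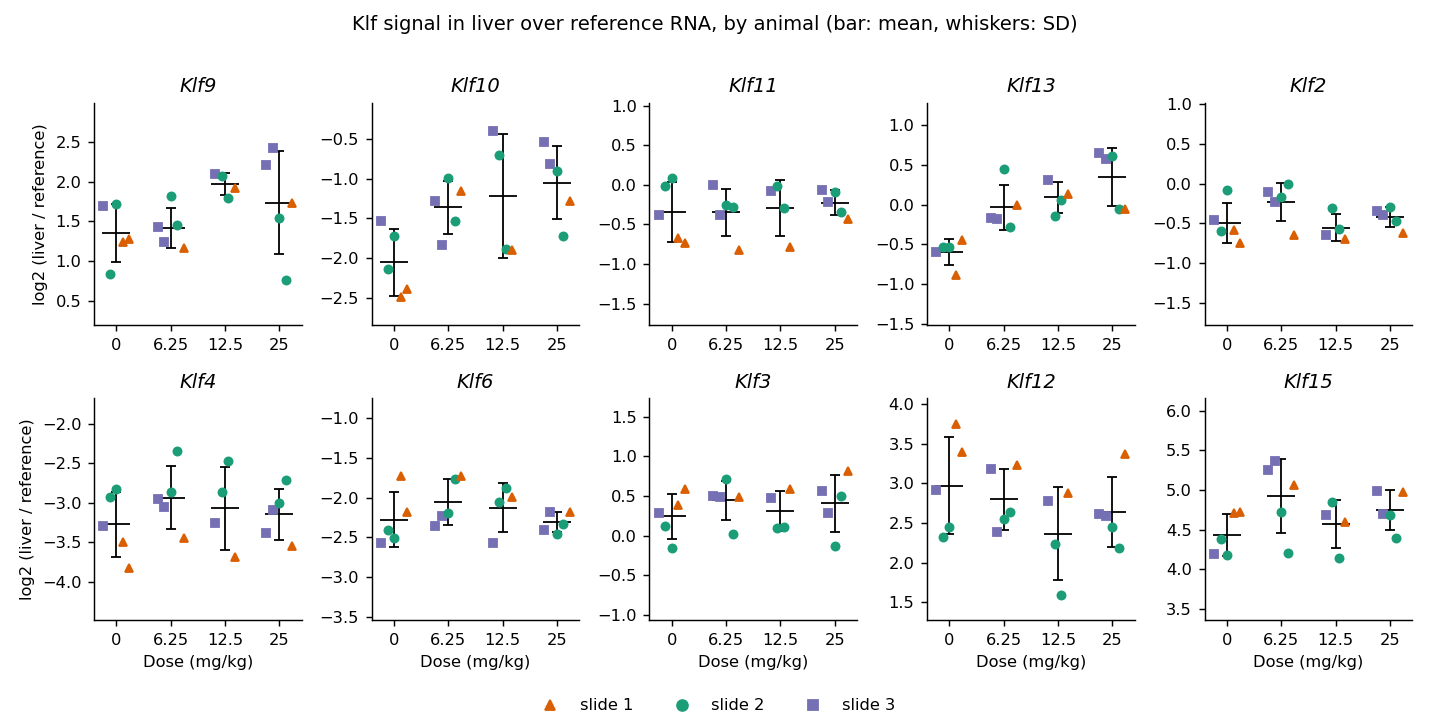
Log2 ratio of liver over reference by dose in mg/kg for the 10 Klf genes, 1 point per animal shaped by slide, with the mean (bar) and SD (whiskers). All panels span an equal range, and Klf13 is the member whose treated animals all lie above the controls at every dose.

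Klf15, the factor that drives amino acid catabolism and gluconeogenesis in the fasted liver, had control ratios of 4.19, 4.38, 4.18, 4.71 and 4.72. At 6.25 mg/kg they were 5.26, 5.36, 4.72, 4.21 and 5.07, so that 4 of 5 animals lay above the controls, 1 of them barely (4.72, as the highest control). At 12.5 mg/kg they ranged from 4.14 to 4.84 and at 25 mg/kg from 4.39 to 4.99, overlapping the controls. The changes were 0.49 ± 0.20, 0.13 ± 0.21 and 0.31 ± 0.20 with rising dose (adjusted p = 0.878, 0.999 and 0.809). At 6.25 mg/kg the change was 0.36, 0.18 and 1.12 within slides 1, 2 and 3, and the last rests on a single control. The change at 25 mg/kg was 0.82 with the scanner software's processed signals (adjusted p = 0.524), on a reference spot that was mostly not above background.

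Klf12 and Klf3, the CtBP-binding repressors, differed in direction. Klf12 had changes of -0.17 ± 0.30, -0.60 ± 0.31 and -0.33 ± 0.30 with rising dose, none passing (adjusted p = 0.959, 0.999 and 0.863), and the animals at 12.5 mg/kg (1.59 to 2.87) overlapped the controls (2.32 to 3.75). With slide as a block its changes were -0.06, -0.48 and -0.22. With 1 array left out the change at 25 mg/kg ran from -0.51 (without replicate 5 of that dose) to -0.14 (without control replicate 4). Slide accounted for 67.9% of the variance of Klf12. Klf3, known as an opponent of Klf1 at erythroid promoters, had 0.20, 0.07 and 0.17, with overlapping groups.

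The activators Klf2, Klf4 and Klf6 had their largest change at the lowest dose. Klf2, which maintains quiescent endothelium, had 0.26, -0.06 and 0.07 at 6.25, 12.5 and 25 mg/kg. Klf4 had 0.34, 0.21 and 0.13, with slide accounting for 79.1% of its variance and a value of 0.45 at 25 mg/kg with the processed signals (adjusted p = 0.595). Klf6 had 0.22, 0.15 and -0.04, and the last turned to 0.06 with slide as a block. None passed at any dose, and whether the doses differed from each other was not tested.

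**Figure D3:**
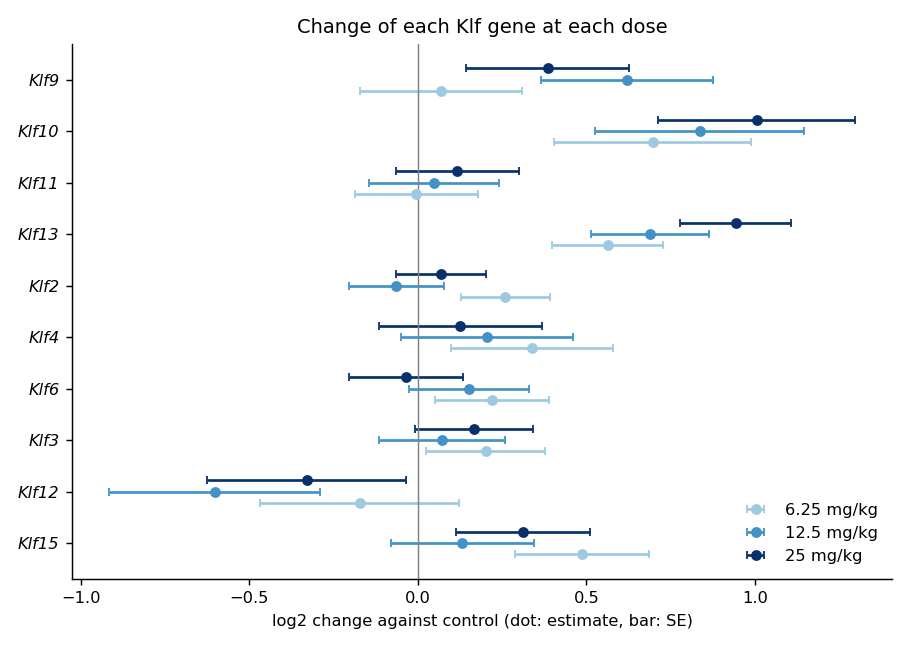
Log2 change of each Klf gene against control at 6.25, 12.5 and 25 mg/kg, with dots at the fitted estimate and bars of 1 SE. Klf13 and Klf10 lie above 0 by more than 1 SE at each dose, and Klf12 lies below 0 at each dose.

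At 12.5 and 6.25 mg/kg no member passed in limma, and 0% of all probes passed at either dose. Before adjustment 1239 (4.21%) and 1639 (5.57%) of 29415 probes had p below 0.05. A share of about 0.05 would do so if no probe differed. The slide block gave 2 probes at 12.5 mg/kg (0.0068%) and 0 at 6.25 mg/kg, again with no member. At both doses 8 members were higher and 2 lower, where 44% and 46.7% of all probes were higher, and in the fit with the slide block 7 were higher, where 47.5% and 49% of all probes were. Klf9 and Klf13 were above every control in all animals at 12.5 mg/kg, where 0.483% of all probes were. Klf13 alone was so at 6.25 mg/kg (0.563% of all probes) and at 25 mg/kg (1.01%). The 3 comparisons share the same 5 controls, so agreement between them is not independent.

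Dose and slide took different shares of the spread of each member. Each fitted alone, dose accounted for 68.4% of the variance of Klf13 and for 42.9% of that of Klf10, while slide accounted for 9.74% and 24.7%. In Klf4, Klf11 and Klf12 slide accounted for 67.9% or more and dose for 18.2% or less. Once dose and slide were removed, none of the 45 pairs of members correlated at an adjusted p under 0.05 over the 19 arrays (permutation test with 100000 resamples), and 24 pairs were positive with a median r of 0.005. The permutation shuffled the values left after dose and slide were fitted as if they were exchangeable. They are not fully so, and its p-values may be too small.

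The pair with the highest r was Klf4 and Klf6, with r = 0.663 and Spearman's rho = 0.518 (permutation p = 0.00204 and 0.0243, adjusted 0.0745 and 0.219). Without the 2 outermost arrays r was 0.512. For each pair these are the arrays farthest from the median of the first gene named, so arrays extreme in the second gene stay in. Within slides 2 and 3, with dose left in, r was 0.834 and 0.628, while slide 1 held too few arrays for a value. Klf9 and Klf2 had r = 0.566 and rho = 0.526 (permutation p = 0.0118 and 0.0223, adjusted 0.148 and 0.219). For this pair r was 0.636 without the 2 outermost arrays, but its sign differed within slides 2 and 3 (0.429 and -0.58). Klf9 and Klf10 had r = 0.552 and rho = 0.491 (permutation p = 0.0132 and 0.0338, adjusted 0.148 and 0.246), with r = 0.379 without the 2 outermost arrays and 0.626 and 0.848 within slides 2 and 3. Klf13 and Klf4 ran opposite, with r = -0.636 and rho = -0.644 (permutation p = 0.00331 and 0.0034, adjusted 0.0745 and 0.153), and r was -0.534 without the 2 outermost arrays and -0.223 and -0.245 within slides 2 and 3.

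**Figure D4:**
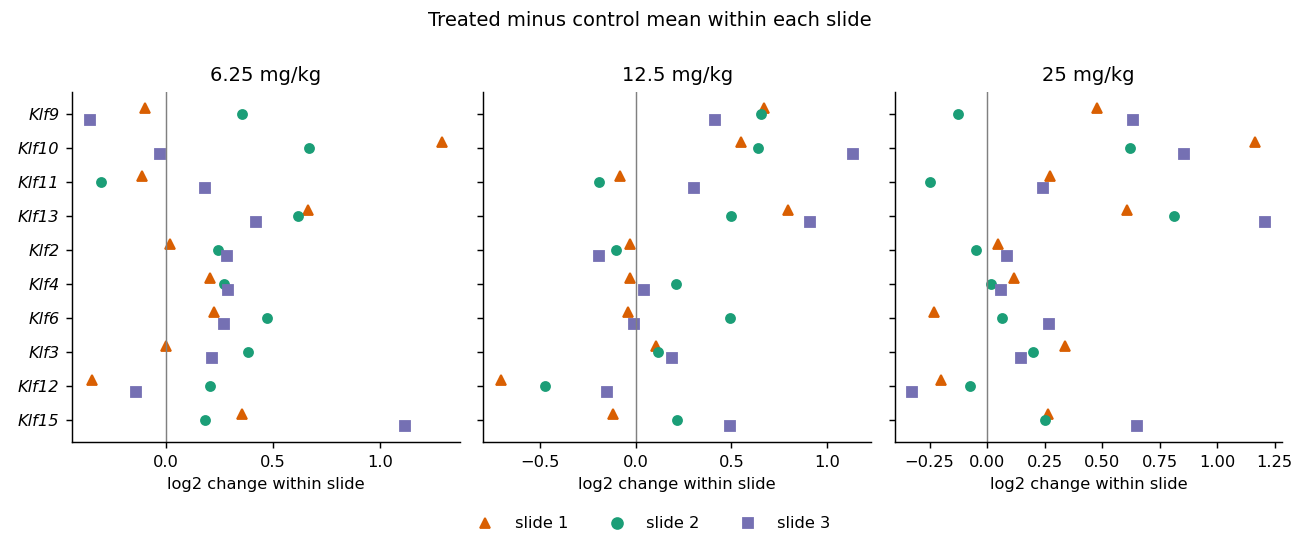
Mean of the treated animals minus mean of the controls within each slide, as log2 change, for the 10 Klf genes at 6.25, 12.5 and 25 mg/kg. Klf13 is above 0 on all 3 slides at all 3 doses, while Klf9 at 25 mg/kg is -0.13 on slide 2 and above 0 on slides 1 and 3.

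The genes whose pattern over the 19 arrays was most like that of Klf13, after each slide's mean was subtracted, included genes of the circadian clock. Among 13543 genes the highest correlations were with Slc5a6, a vitamin transporter (r = 0.888), Dbp, a direct clock output factor (0.883), Nr1d2, a nuclear receptor of the clock (0.871), Crcp (0.863) and Ubtd1 (0.857). The most opposed were Nfil3, a repressor that binds the same sites as Dbp (-0.915), Pnrc1 (-0.905) and Erp29, a protein of the endoplasmic reticulum (-0.898). Dose is part of these patterns, and with dose removed too the values were 0.651 for Dbp, 0.58 for Nr1d2, 0.765 for Crcp, -0.76 for Nfil3 and -0.854 for Erp29. All points share their arrays with Klf13, so the values describe likeness only.

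Klf10 was most like Prr3 (r = 0.892), Hook2 (0.889), Clmn (0.876), Tut4 (0.876) and Rc3h2 (0.864), and most opposed to Map2k1 (-0.898), Selenos (-0.892) and Mvd, an enzyme of cholesterol synthesis (-0.88). Klf9 was most like Ypel3 (0.824), Klhl21, Slc25a27, Hmga1 and Tgfbr3, and most opposed to 1810009A15Rik (-0.862), Tmcc1 and Rtp3. Klf15 was most like 2610002M06Rik (0.841), Tmem25, Ndufb2, Pex14 and Snx18, and most opposed to Tbc1d19 (-0.818), Sly and Smarca5-ps. The 4 members had no gene in common among these. So few of 13543 genes were listed for each that this cannot show whether their patterns differed. With each slide's mean subtracted, r was 0.728 for Klf10 and Klf13, 0.601 for Klf9 and Klf10 and 0.528 for Klf9 and Klf13. It was 0.345 for Klf10 and Klf15, 0.317 for Klf13 and Klf15 and -0.125 for Klf9 and Klf15. Dose is part of these values too.

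Of the clock list of 21 measured genes, 3 rose and 1 fell at the highest dose, where 0.0442% of all probes rose and 0.0136% fell. With slide as a block 7 rose and 3 fell, where 0.486% of all probes rose and 0.33% fell. None passed at 6.25 or 12.5 mg/kg, and with the block 1 rose at 12.5 mg/kg. Dbp rose by 3.71 ± 0.54, Nr1d2 by 1.35 ± 0.21 (adjusted p = 0.0129 for both) while Usp2, a ubiquitin protease that cycles daily, rose by 3.79 ± 0.58 (adjusted p = 0.0129). Dbp had 2.71 and 3.52 at 6.25 and 12.5 mg/kg (adjusted p = 0.374 and 0.0661), where Klf13 had 0.56 and 0.69. The hour at which livers were taken is not given in the sources used here, and the part of the clock genes in the Klf13 difference was not tested.

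Other Klf and Sp genes, the partners and the pathways tied to single members gave few calls. Calls were as rare over all probes, where 0.0578% passed at 25 mg/kg and 0.816% with slide as a block. The counts of higher genes in these lists at 25 mg/kg stand beside 44.9% of all probes. Of 12 measured other Klf and Sp genes none passed at 25 mg/kg and 9 were higher (median 0.22). The smallest p-values were those of Sp8, above background on 5 arrays (0.63 ± 0.18, adjusted p = 0.248), Sp2 (0.23) and the erythroid factor Klf1 (0.47). Of 11 partner genes none passed (median 0.03). Sin3a, the scaffold that Klf9, Klf10, Klf11 and Klf13 bind, had 0.20 ± 0.12, and its complex members Sap25 and Sap18 had 0.15 and 0.14.

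Of 20 genes of the glucocorticoid response none passed, with 11 higher and 9 lower. Per1, also a clock gene, had 1.33 ± 0.32 (adjusted p = 0.163), Fkbp5, a receptor co-chaperone, had 0.76 ± 0.22 (adjusted p = 0.266) and Pdk4, which restrains glucose oxidation, had -1.28 ± 0.38 (adjusted p = 0.272). Of 19 genes of the TGF-beta response none passed. Id1, an inhibitor of differentiation factors, had 0.83 ± 0.19 (adjusted p = 0.111). It passed once slide was a block (adjusted p = 0.0391), where 0.816% of all probes passed. Id2 and Smad7 had 0.51 and 0.43.

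Of 20 genes of amino acid metabolism none passed, with 10 higher and 10 lower and a median of 0.03, where Klf15 had 0.31. Bckdhb of branched-chain amino acid breakdown had -0.28, Alas1 of haem synthesis 1.13 ± 0.66 (adjusted p = 0.771) and Gpt2, an alanine transaminase, 0.33. Of 11 thyroid hormone genes none passed, with Ncor1 at -0.18, Thra at -0.29 and Cyp7a1, the rate-limiting enzyme of bile acid synthesis, at 0.999 ± 0.61 (adjusted p = 0.791). Of 17 immediate early genes none passed, with Maff at 0.80 ± 0.25 (adjusted p = 0.326), Jund at 0.25 and Zfp36 at 0.28. The 17 had 11, 16 and 9 higher at 6.25, 12.5 and 25 mg/kg, where 46.7%, 44% and 44.9% of all probes were higher, and none passed at any dose.

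Markers of the cell types that express Klf genes were set beside the members. None of 15 endothelial, 11 macrophage, 12 stellate, 10 lymphocyte, 5 erythroid, 8 cholangiocyte and 11 hepatocyte markers passed at any dose. Of all probes, 0.0578% passed at 25 mg/kg and 0% at 12.5 and 6.25 mg/kg. The mean log2 ratio of the endothelial markers ran from 1.81 to 2.30 in controls and from 1.80 to 2.28 at 25 mg/kg. That of the lymphocyte markers ran from -0.94 to -0.55 and from -0.96 to -0.86, that of the stellate markers from -1.29 to -0.87 and from -1.42 to -0.73, and that of the erythroid markers from 3.24 to 4.22 and from 3.33 to 4.29. Macrophage markers ran from 2.70 to 4.28 in controls and from 2.22 to 3.41 at 25 mg/kg. At 25 mg/kg 9 of 11 macrophage (median -0.22), 8 of 10 lymphocyte (-0.15), 6 of 8 cholangiocyte (-0.12) and 3 of 5 erythroid markers (-0.11) were lower. With slide as a block these medians were -0.11, -0.18, -0.12 and 0.05. Higher were 10 of 15 endothelial (0.08) and 7 of 12 stellate markers (0.02). The erythroid markers include Klf1, also counted among the other Klf genes. The cholangiocyte marker Cftr was above background on no array. The 11 hepatocyte markers were all lower at each dose without the slide block, with a median of -0.30 at 25 mg/kg. Of all probes, 44.9%, 44% and 46.7% were higher at 25, 12.5 and 6.25 mg/kg. With slide as a block the median at 25 mg/kg was -0.05, and Hnf4a (0.03) and Apoa1 (0.05) were higher while the others were lower. At 12.5 and 6.25 mg/kg the block also left some markers higher, with medians of -0.05 and -0.12. The part of these markers in the Klf values was not tested.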

How the data were processed

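Per the file headers, the scanner files give median intensity in both dyes for every spot and its surroundings, from Feature Extraction version 10.7.3.1. A deposited table holds log2 ratios of liver over reference whose making is not given in the sources used here. It was used as an alternative, and its direction was taken from log2 ratios computed here from the scanner medians. Those ratios had loess within each array and no background subtraction, and the columns of the deposited table correlated with them at 0.993 to 0.996. Liver RNA was extracted and 200 ng per animal was labelled, per the labels' protocols. Animals were labelled separately, so replicates are separate mice.

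Median signals were corrected with normexp (offset 50) and loess within each array (limma 3.58.1, R 4.3.3). Outlier spots (0.623%) were left out and spots of a probe averaged. A probe was kept when over 0.5 of its spots were well above background in liver on at least 4 arrays, which kept 29415 of 55681. Group means were fitted over 19 arrays with lmFit and eBayes, and the code was tested on simulated data. Symbols came from RefSeq accessions (GRCm38.p6, 26413 probes named), and a gene is its brightest kept probe.

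The members, lists and tests were chosen with earlier results of these data known. The text names all members, the 3 genes of smallest p at 25 mg/kg of each list described, and the 5 most alike and 3 most opposed genes of Klf13, Klf9, Klf10 and Klf15. Cftr was named because it was above background on no array. The lists cover other Klf and Sp genes, partners, 5 response or pathway groups, the clock and 7 cell types. Alternatives were slide as a block, no background subtraction, the processed signals, the deposited table, other filters, the compared arrays alone, a trended robust prior, dose as a rank, array weights, the mean of a gene's probes and each array left out. Leaving out slide 1 was added after the data were seen. The number of arrays limits precision.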

Additional observations from a re-analysis of the deposited data

How the results depend on the processing

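The direction of every member but Klf4 and Klf6 at 25 mg/kg was the same under the alternatives fitted over several slides and with each array left out. Klf6 turned from -0.04 to 0.059 with slide as a block and to 0.0328 with array weights, and ran from -0.11 to 0.10 with 1 array left out. Klf4 ran from -0.0105 to 0.238. Within slide 2 alone, Klf2, Klf9 and Klf11 were below 0 (-0.05, -0.13 and -0.25).

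At 25 mg/kg the 17 probes that passed became 240 with slide as a block, 146 with array weights, 48 with the compared arrays alone, 33 with a trended robust prior, 29 without slide 1, 10 with no filter on low signal, and 0 to 67 with 1 array left out. The single member that passed, Klf13, became 0 members with the processed signals, the deposited table, no filter, the compared arrays alone and without slide 1, and 0 to 1 with 1 array left out. At 12.5 mg/kg 0 probes became 2 with slide as a block, 3 with probes above background on all arrays, 6 with the compared arrays alone, and 0 to 5 with 1 array left out, with 0 members throughout. For the dose trend 6 probes became 71 with slide as a block, 118 with array weights, 27 with dose as a rank, 2 with the processed signals, 2 with no filter, and 0 to 83 with 1 array left out. The members passing for the trend went from 0 to 1 (Klf13) with slide as a block, with dose as a rank and with array weights, and 0 to 1 with 1 array left out. Against the reference, 9 members passed counting Klf11, and 8 to 10 with 1 array left out. The causes were not tested.

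No paired analysis was possible because the labels number the animals in no way that ties them across doses. Signal near background limits Klf11 and Klf4 in liver and Klf15 and Klf12 in the reference, and 1 probe per gene leaves no second measurement of any member.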
